A study of Mus musculus with 16 samples.

Results

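The 10 core circadian clock genes are described here in mouse pancreas: the activators *Arntl*, *Npas2* and *Clock*, the repressors *Cry1*, *Cry2*, *Per1*, *Per2* and *Per3*, and the nuclear receptors *Nr1d1* and *Nr1d2*. They were taken by symbol from the 24411 genes of the count table, and the set was chosen by a pattern in their levels in these same mice, the relation of activators to repressors between groups, batches and mice, so their levels and differences are given as descriptions and carry no test. All 10 passed the filter on low counts, as did 13660 genes in all. All are protein-coding genes, which the GENCODE annotation of GRCm38 places as follows: the activators *Arntl* at chr7:113207465-113314126, *Npas2* at chr1:39193731-39363236 and *Clock* at chr5:76209868-76304792, the cryptochromes *Cry1* at chr10:85131700-85185064 and *Cry2* at chr2:92403646-92434043. The *Per* genes lie with *Per1* at chr11:69095217-69109960, *Per2* at chr1:91415982-91459324 and *Per3* at chr4:151003652-151044665, and the nuclear receptors with *Nr1d1* at chr11:98767932-98775333 and *Nr1d2* at chr14:18204054-18239127.

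Bulk RNA-seq was made from whole pancreas of 16 male C57BL6/J mice at 12 weeks of age, with 1 library per mouse. Lean WT mice (n = 5) and leptin-deficient Lep(ob/ob) mice (n = 7) drank control water. The CCKR-I mice (n = 4) were Lep(ob/ob) mice given an antagonist of the cholecystokinin receptors in drinking water from 6 weeks of age, for 6 weeks. Mice 69 and 72 received proglumide at 0.1 mg/mL, and mice 74 and 76 lorglumide at 0.05 mg/mL. Lep(ob/ob) mice make no functional leptin and become obese on chow: the mean body weight of the WT mice was 27.7 ± 3.22 g (SD), that of the Lep(ob/ob) mice 51.0 ± 1.98 g and that of the CCKR-I mice 54.8 ± 2.22 g. The labels describe the WT mice as bred in house and the Lep(ob/ob) mice as purchased, whereas the study's methods describe both as purchased; if the labels hold, colony and genotype cannot be told apart. Housing had 12-hour day/night cycles, and the hour at which each pancreas was taken is not given in the sources used here.

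The clock runs in almost every cell as a loop of transcription and repression that takes about a day. BMAL1 (the protein of *Arntl*) pairs with CLOCK or its paralog NPAS2 on E-box sequences and switches on the *Per* and *Cry* genes, the *Nr1d* genes and outputs such as *Dbp*. PER and CRY proteins then hold that pair back, while REV-ERBα and REV-ERBβ (from *Nr1d1* and *Nr1d2*) repress *Arntl*, *Npas2* and *Nfil3* from RORE sequences. D-boxes, bound by DBP, TEF and HLF and by the repressor NFIL3, form the third kind of element. *Arntl* and the *Per* and *Nr1d* transcripts therefore peak at opposite times of day, and *Cry1* peaks later than the *Nr1d* genes. In the pancreas, feeding times and glucocorticoids are known to set this clock.

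These elements can be read in the promoters. Each window ran from 250 bases before to 50 bases after a RefSeq start (GRCm38.p6), and 9 of the 10 genes had at least 1. A script searched both strands for the E-box CACGTG, the E'-box CACGTT, the D-box TTATGTAA and the RORE core AGGTCA. *Clock* had 3 windows and *Arntl* and *Per1* 2 each, and in each of these genes a single window held the motifs found and the others held none of these 4. No match overlapped another among the sites shown, and a match describes the letters and not binding. The sites are shown because their motifs are the elements named above, and not every gene held one of each: the windows of *Per3* and *Nr1d2* held neither CACGTG nor CACGTT. Capitals mark the motif as it reads on the gene's strand, AACGTG and TGACCT being CACGTT and AGGTCA on the other strand, and the offset counts from the start base as 0.
*Cry1*, chr10:85185099-85185124, minus strand, offset -60: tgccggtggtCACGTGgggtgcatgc
*Cry1*, chr10:85185118-85185143, minus strand, offset -79: acacttcagaAACGTGaggtgccggt
*Cry2*, chr2:92434220-92434245, minus strand, offset -166: acatggtgggAACGTGagggggcgga
*Per1*, chr11:69098773-69098798, plus strand, offset -166: cacccaagtcCACGTGcagggatgtg
*Nr1d1*, chr11:98775390-98775415, minus strand, offset -28: cacagatctcAACGTGccggctgctg
*Per3*, chr4:151044806-151044880, minus strand, offsets -205 and -158: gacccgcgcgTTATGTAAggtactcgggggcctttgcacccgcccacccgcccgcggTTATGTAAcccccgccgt
*Nr1d2*, chr14:18239168-18239193, minus strand, offset -77: ttggaagaagAGGTCAggaccgctcg
*Arntl*, chr7:113207532-113207557, plus strand, offset 31: ggcagaaagtAGGTCAgggacggagg
*Clock*, chr5:76303606-76303631, minus strand, offset -119: ctttggcctcTGACCTgacagatgac
*Per3* held 2 copies of the D-box 47 bases apart, an arrangement of 2 or more copies that 0.0213% of all 32851 windows share. CACGTG occurred in 7.15% of those windows, CACGTT in 4.68%, TTATGTAA in 0.938% and AGGTCA in 16.3%. The window of *Npas2* held none of the 4 motifs, and the *Per1* window shown also held AGGTCA, on the opposite strand at offset -137. Among the further clock genes, *Ciart* held 3 copies of CACGTG, at offsets -116, -58 and -44.

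Library size (total counts, M for 1e+06 counts) differed by batch, as the labels call it. Batch A had 3 WT and 4 Lep(ob/ob) libraries of 19.2 to 34.5 M. Batch B had 2 WT, 3 Lep(ob/ob) and all 4 CCKR-I libraries, of 9.87 to 15.9 M. A library's top 50 genes accounted for 79.2% to 85.0% of its counts in the former and for 49.3% to 77.1% in the latter. The *Lep* transcript was present in every mouse, which does not check the mutant protein. In WT it was at 0.986 to 3.68 counts per 1e+06 of scaled library size (CPM). In Lep(ob/ob) it was at 14.2 to 477 CPM and in CCKR-I at 52.8 to 502 CPM. The scaling factors ran from 0.558 (WT mouse 5489) to 2.16 (CCKR-I mouse 69), so CPM is not a share of all counts. Acinar markers (10 genes) summed to 470472 to 515983 CPM (WT) and 315147 to 490451 CPM (Lep(ob/ob)) in the first batch. In the second they summed to 105919 to 215012 CPM (WT), 124869 to 312847 CPM (Lep(ob/ob)) and 62963 to 181814 CPM (CCKR-I), and their part in the clock results was not tested. WT mouse 5489 stood apart from the other WT mice in *Cry1* and *Nr1d1*, and the fitted difference of each core clock gene between Lep(ob/ob) and WT is also given without it.

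*Arntl* had the widest fitted difference of the 10 genes between Lep(ob/ob) and WT. In WT mice of batch A it stood at 22.8, 14.8 and 17.7 CPM (mice 5489, 5492 and 5494), and in those of batch B at 2.10 and 3.77 CPM (mice 58 and 59). Lep(ob/ob) mice had 0.995, 0.919, 4.14 and 2.75 CPM in batch A (mice 441, 472, 417 and 447) and 1.05, 1.21 and 0.830 CPM in batch B (mice 461, 463 and 464). CCKR-I mice had 0.628, 0.739, 0.486 and 0.472 CPM (mice 69, 72, 74 and 76). Within each batch every Lep(ob/ob) mouse was below every WT mouse, but of the batch A Lep(ob/ob) mice 417 lay above both batch B WT mice and 447 between them. The fitted difference between Lep(ob/ob) and WT was a log2 fold change of -2.52 ± 0.36 (SE), a 5.74-fold lower level (in bulk tissue, fewer cells of a type and less RNA per cell cannot be told apart), with -2.93 ± 0.44 in batch A alone and -1.54 ± 0.40 in batch B alone. Without mouse 5489 it was -2.33 ± 0.37. All CCKR-I mice lay below all Lep(ob/ob) mice, on 7 to 14 reads each, with a log2 fold change against Lep(ob/ob) of -0.38 ± 0.51 (SE) in the fit of all mice and -0.78 ± 0.37 in batch B alone.

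*Npas2*, which encodes a partner of BMAL1 in place of CLOCK, followed the same order at lower levels. WT mice of batch A had 3.19, 2.47 and 4.08 CPM and those of batch B 0.366 and 0.426 CPM, in the order of mice above. Lep(ob/ob) mice had 0.213, 0.394, 1.15 and 0.838 CPM in batch A and 0.150, 0.156 and 0.511 CPM in batch B. The groups did not overlap in batch A and did in batch B, and the fitted log2 fold change was -1.80 ± 0.44 (SE), or -2.18 ± 0.46 in batch A alone; without mouse 5489 the gene missed the filter on low counts and was not fitted. Only 2 reads fell on *Npas2* in the 4 CCKR-I mice together, in mice 69 and 74, against 14 reads in 3 Lep(ob/ob) mice and 11 reads in 2 WT mice of the same batch. Scaled to depth, the level in CCKR-I was 0.108 times that in Lep(ob/ob) of batch B, with an exact 95% interval of 0.0119 to 0.469 that covers counting error only.

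*Clock*, the usual partner of BMAL1, differed less between groups than *Arntl* and *Npas2*. WT mice ranged from 39.5 to 66.3 CPM (median 49.3), Lep(ob/ob) mice from 30.5 to 42.9 CPM (median 36.2) and CCKR-I mice from 29.7 to 40.2 CPM (median 35.6). Lep(ob/ob) lay below WT without overlap inside either batch, with a log2 fold change of -0.49 ± 0.12 (SE), -0.47 ± 0.12 in batch A, -0.45 ± 0.21 in batch B and -0.41 ± 0.12 without mouse 5489. CCKR-I and Lep(ob/ob) overlapped, with a log2 fold change of 0.13 ± 0.14 in the fit of all mice and 0.14 ± 0.18 in batch B.

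**Figure D1:**
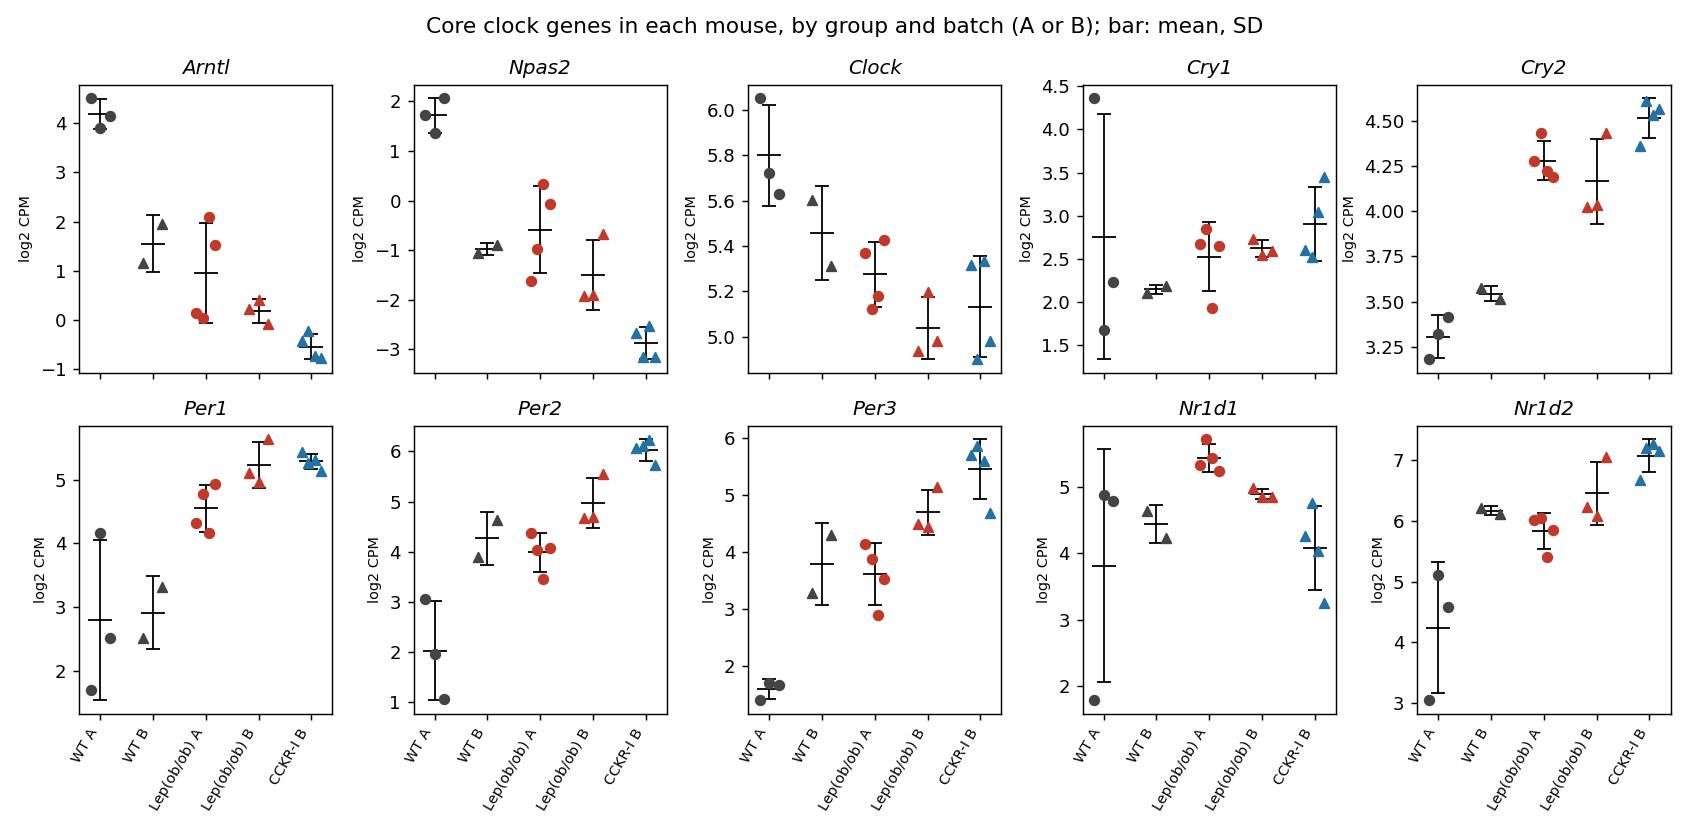
Level of each of the 10 core clock genes in each of 16 mice, in log2 CPM (prior count 2) on the vertical axis, by group and batch on the horizontal axis; circles are batch A, triangles batch B, and bars show the mean and SD. *Arntl* is at 14.8 to 22.8 CPM in WT mice of batch A and at 2.10 and 3.77 CPM in those of batch B. CCKR-I mice, all of batch B, have 0.472 to 0.739 CPM. *Per2* and *Per3* run the other way, and vertical scales differ between panels.

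Among the *Per* genes, whose proteins restrain CLOCK and BMAL1, *Per2* and *Per3* ran opposite to *Arntl* between groups and between the WT mice of the batches, and *Per1* did so between Lep(ob/ob) and WT. *Per3* was at 2.50, 3.14 and 3.06 CPM in WT mice of batch A and at 9.60 and 19.4 CPM in those of batch B. Lep(ob/ob) mice had 17.5, 14.6, 7.32 and 11.4 CPM in batch A and 22.4, 21.5 and 34.996 CPM in batch B, and CCKR-I mice 51.6, 57.6, 47.9 and 25.6 CPM. The groups of each batch stood in the order WT, Lep(ob/ob), CCKR-I, with 1 overlap, where CCKR-I mouse 76 lay below Lep(ob/ob) mouse 464. Lep(ob/ob) exceeded WT by a log2 fold change of 1.52 ± 0.30 (SE), with 2.16 ± 0.28 in batch A, 0.83 ± 0.40 in batch B and 1.39 ± 0.33 without mouse 5489. CCKR-I against Lep(ob/ob) gave 0.50 ± 0.35 in the fit of all mice and 0.83 ± 0.33 in batch B.

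*Per2* gave 8.19, 3.81 and 1.98 CPM in WT mice of batch A and 14.7 and 24.8 CPM in batch B. In Lep(ob/ob) it gave 20.5, 16.3, 10.9 and 16.8 CPM in batch A and 25.6, 25.9 and 46.9 CPM in batch B, and in CCKR-I 66.9, 69.3, 74.5 and 52.8 CPM. Both steps were free of overlap within a batch, although WT mouse 59 of batch B exceeded every batch A Lep(ob/ob) mouse. The log2 fold change was 1.31 ± 0.31 (SE) for Lep(ob/ob) against WT (1.87 ± 0.39 in batch A, 0.70 ± 0.34 in batch B and 1.51 ± 0.34 without mouse 5489), while CCKR-I against Lep(ob/ob) gave 0.75 ± 0.36 in the fit of all mice and 1.04 ± 0.28 in batch B.

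*Per1*, which also responds quickly to glucocorticoids, was at 3.11, 17.8 and 5.61 CPM in WT mice of batch A and 5.58 and 9.86 CPM in batch B. Lep(ob/ob) mice had 19.9, 27.3, 17.8 and 30.4 CPM in batch A and 34.3, 31.0 and 49.7 CPM in batch B, and CCKR-I mice 43.0, 38.5, 39.6 and 35.3 CPM. Every Lep(ob/ob) mouse of either batch was above every WT mouse, though WT mouse 5492 and Lep(ob/ob) mouse 417 were nearly level. The log2 fold change was 1.78 ± 0.34 (SE), with 1.47 ± 0.48 in batch A, 2.28 ± 0.31 in batch B and 1.59 ± 0.32 without mouse 5489. CCKR-I and Lep(ob/ob) mice of batch B overlapped, with a log2 fold change of 0.20 ± 0.37 in the fit of all mice and 0.06 ± 0.23 in batch B.

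The cryptochromes, which repress CLOCK and BMAL1 directly, behaved differently from each other. *Cry2* was the steadiest of the 10 genes, with 8.95 to 11.8 CPM in WT, 16.2 to 21.5 CPM in Lep(ob/ob) and 20.4 to 24.3 CPM in CCKR-I. WT and Lep(ob/ob) were separate in both batches, with a log2 fold change of 0.84 ± 0.11 (SE), 1.04 ± 0.11 in batch A, 0.61 ± 0.21 in batch B and 0.79 ± 0.12 without mouse 5489. CCKR-I against Lep(ob/ob) stood at 0.26 ± 0.13 with all mice and 0.38 ± 0.17 in batch B. *Cry1* was at 20.5 CPM in WT mouse 5489 and between 3.08 and 4.59 CPM in the other 4 WT mice. Lep(ob/ob) mice had 3.72 to 7.09 CPM (median 6.19), and CCKR-I mice 5.97, 5.65, 8.14 and 10.9 CPM. Its difference turned on that 1 mouse: the log2 fold change of Lep(ob/ob) against WT was -0.24 ± 0.38 (SE) with all mice, 0.54 ± 0.21 without mouse 5489, -0.61 ± 0.54 in batch A and 0.46 ± 0.30 in batch B. For CCKR-I against Lep(ob/ob) it was 0.58 ± 0.44 with all mice and 0.37 ± 0.25 in batch B.

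The REV-ERB genes, repressors of *Arntl*, were not alike across the groups. *Nr1d1* was at 3.34, 29.1 and 27.4 CPM in WT mice of batch A and 24.8 and 18.7 CPM in batch B. Lep(ob/ob) mice had 40.0, 52.4, 43.1 and 37.6 CPM in batch A and 31.4, 28.7 and 28.7 CPM in batch B, while CCKR-I mice had 19.1, 27.0, 16.3 and 9.44 CPM. So Lep(ob/ob) mice stood highest in each batch, and every CCKR-I mouse lay below every Lep(ob/ob) mouse. The log2 fold change was 0.83 ± 0.36 (SE) for Lep(ob/ob) against WT, 1.16 ± 0.52 in batch A, 0.42 ± 0.35 in batch B and 0.54 ± 0.21 without mouse 5489, and for CCKR-I against Lep(ob/ob) -0.88 ± 0.44 with all mice and -0.69 ± 0.29 in batch B. Of the exon length of *Nr1d1*, 9.67% lies opposite exons of *Thra*, which was at 7.75 to 18.4 CPM; the library kit keeps the strand, but the counting setting is not given in the sources used here.

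*Nr1d2* was at 8.12, 34.3 and 23.9 CPM in WT mice of batch A and 74.5 and 69.3 CPM in batch B. Lep(ob/ob) mice had 64.6, 65.7, 42.5 and 57.9 CPM in batch A and 74.9, 67.5 and 132.5 CPM in batch B, and CCKR-I mice 102.0, 147.8, 154.2 and 142.2 CPM. Its log2 fold change against Lep(ob/ob) in CCKR-I was 0.31 ± 0.36 (SE) in the fit of all mice and 0.60 ± 0.28 in batch B, and the mice overlapped. Against WT, Lep(ob/ob) mice were at 0.94 ± 0.30 with all mice, 0.68 ± 0.22 without mouse 5489, 1.42 ± 0.38 in batch A and 0.33 ± 0.33 in batch B. Among its stretches of 50 bases, 5.13% also occur in transcripts of another gene, AC170187.1.

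In the model across all genes, 4 of the 10 clock genes were called higher and 3 lower in Lep(ob/ob) than in WT (adjusted p under 0.05), where 5.93% of all 13660 genes were called higher and 3.14% lower (9.07% in all). The median absolute log2 fold change was 1.13 over the 10 genes and 0.23 over all genes. Since a pattern in these mice chose the genes, nothing is read from that count or that median. Groups did not overlap for 6 higher (*Cry2*, the 3 *Per* and both *Nr1d* genes) and 3 lower (the activators) in batch A, against 10.7% and 10.3% of all genes (21.0% in all). In batch B this held for 6 higher (*Cry1*, *Cry2*, the *Per* genes and *Nr1d1*) and 2 lower (*Arntl* and *Clock*), against 17.2% and 15.7% of all genes (33.0% in all). Over both batches together only *Cry2* and *Per1* were separate, both higher in Lep(ob/ob), as were 2.92% of all genes, with 1.12% lower (4.04% in all). Without mouse 5489 the calls numbered 5, as *Npas2* then missed the filter on low counts and *Clock* the threshold, while 6.14% of all genes were called in that fit.

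**Figure D2:**
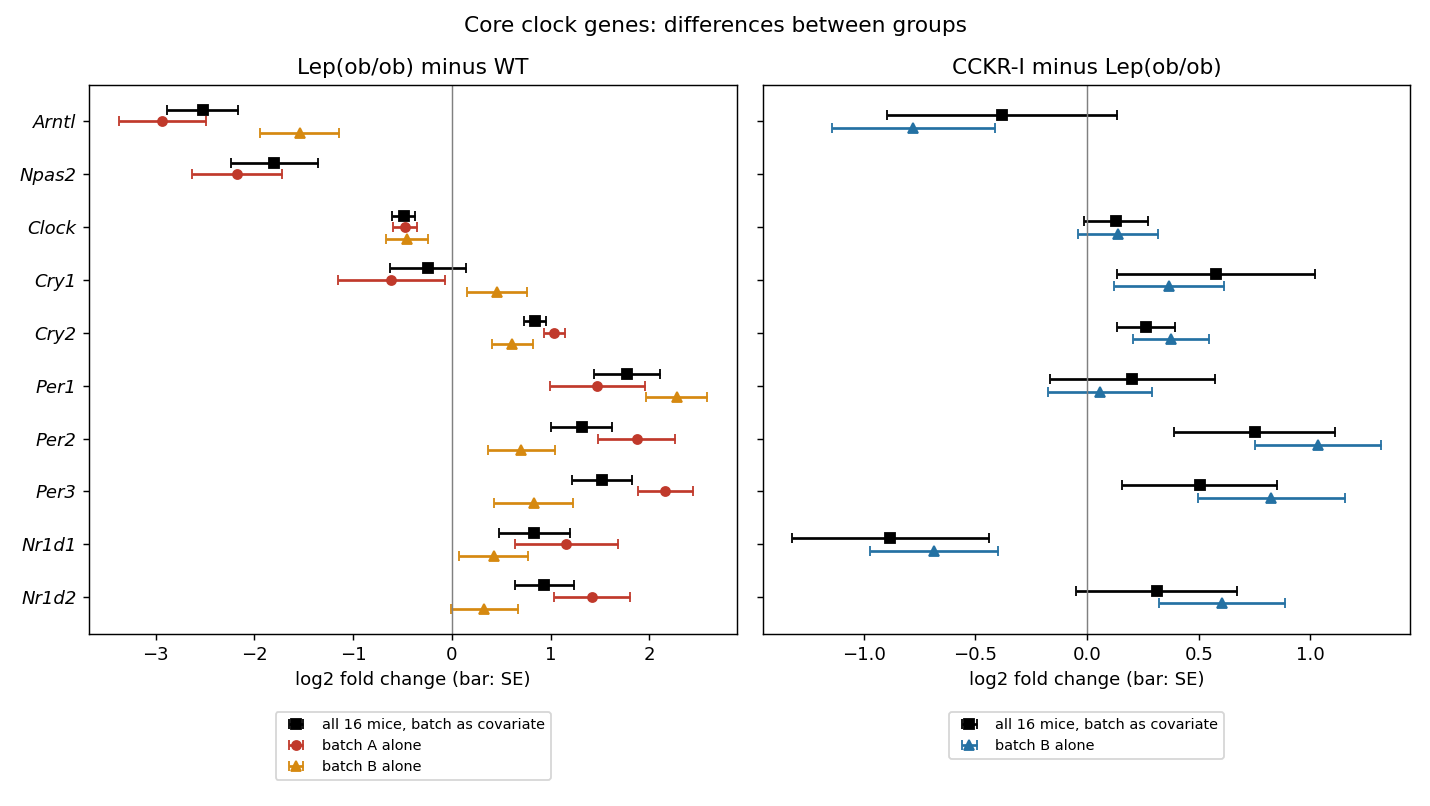
Log2 fold change of each core clock gene with its SE (horizontal axis), for Lep(ob/ob) minus WT on the left and CCKR-I minus Lep(ob/ob) on the right; squares are the fit of all 16 mice with batch as a covariate, circles batch A alone and triangles batch B alone. *Arntl* lies at -2.52 and *Per1* at 1.78 on the left; *Npas2* could not be fitted in batch B and, with 2 reads in CCKR-I, is left out on the right.

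For CCKR-I against Lep(ob/ob), none of the 10 genes was called by edgeR, where 0.0586% of all genes were (0.0293% higher and 0.0293% lower); the unadjusted p was under 0.05 for 1 of the 10, and DESeq2 also called 0 (0.945% of all genes), with 3 at an unadjusted p under 0.05. Most of these differences moved without the 4 mice with the highest adipocyte marker sum (Lep(ob/ob) 463, 461 and 417 and CCKR-I 69): the fitted log2 fold change took the other sign for *Arntl* (0.64), *Per3* (-0.12) and *Nr1d2* (-0.14), was 0.16 for *Per2*, 0.09 for *Cry2* and 0.01 for *Per1*, and was 0.87 for *Cry1* and -1.04 for *Nr1d1*. Within batch B, *Per2* was higher without overlap, against 4.92% of all genes, and *Arntl*, *Npas2* and *Nr1d1* were lower, against 3.57% (8.49% in all). CCKR-I against WT gave 4 genes called higher and 2 lower, against 4.22% and 1.35% of all genes (5.57% in all), with a log2 fold change of -2.90 ± 0.54 (SE) for *Arntl*, 2.06 ± 0.37 for *Per2* and -0.05 ± 0.45 for *Nr1d1*; without mouse 5489 these were -2.80 ± 0.53, 2.16 ± 0.38 and -0.22 ± 0.25. Of the 9 genes then fitted, 5 were called higher and 1 lower, against 3.61% and 1.2% of all genes in that fit. In batch B, 6 genes lay above (*Cry1*, *Cry2*, the *Per* genes and *Nr1d2*) and 2 below (*Arntl* and *Npas2*) every WT mouse, against 11.6% and 10.0% of all genes (21.6% in all). The doses of the antagonists differ, so their mice are set side by side only: *Cry1* was at 5.97 and 5.65 CPM with proglumide and 8.14 and 10.9 CPM with lorglumide, *Nr1d1* at 19.1 and 27.0 against 16.3 and 9.44 CPM, and *Per3* at 51.6 and 57.6 against 47.9 and 25.6 CPM. The comparisons share the Lep(ob/ob) or the WT mice.

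The batches also differed in some of the clock genes. In the same model, batch B minus batch A was -1.80 ± 0.39 (SE, log2) for *Arntl*, 1.46 ± 0.29 for *Per2*, 1.55 ± 0.29 for *Per3* and 1.10 ± 0.29 for *Nr1d2*, and 0.03 ± 0.11 for *Cry2*. Of the 10 genes, 3 were called higher and 2 lower, while 18.1% and 17.7% of all genes were (35.7% in all), and nothing is read from a count so near that share. *Arntl* of WT mice was lower in batch B, and *Per3* higher, in the direction in which Lep(ob/ob) differed from WT.

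Per kb of exon, which allows genes to be compared, the order of mean levels is given over the mice of both batches. In WT it ran *Nr1d2* (9.01 ± 6.19 CPM per kb, SD, n = 5), *Nr1d1* (7.60 ± 3.85), *Clock* (5.16 ± 0.98), *Arntl* (3.96 ± 2.90), *Cry1* (2.43 ± 2.43), *Cry2* (2.42 ± 0.26), *Per2*, *Per1*, *Per3* and *Npas2*. No neighbours in that order differed by more than the larger of their SDs. In Lep(ob/ob) *Nr1d2* (15.5 ± 6.10, SD, n = 7) and *Nr1d1* (13.8 ± 3.19) led, *Per1* (5.35 ± 1.87) came next, and *Arntl* (0.55 ± 0.41) and *Npas2* (0.12 ± 0.09) came last; only the steps below *Nr1d1*, *Cry1* and *Arntl* exceeded the larger SD. That order did not hold in batch A, where *Nr1d1* (15.9) was above *Nr1d2* (12.4) and *Cry2* (4.46) above *Per1* (4.24). In CCKR-I *Nr1d2* (29.3 ± 5.05, SD, n = 4) stood 3.56 SDs above *Per2* (11.3 ± 1.59), and *Arntl* was at 0.19 ± 0.04. The order in WT pooled batches that differed: in batch A it opened with *Nr1d1* (7.34), *Arntl* (5.97), *Clock* (5.65) and *Nr1d2* (4.74), and in batch B with *Nr1d2* (15.4), *Nr1d1* (7.99) and *Clock* (4.43), while *Arntl* (0.951) came next to last.

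The balance of activator and repressor in each mouse can be read without any scaling, as a ratio of raw counts within 1 library. *Arntl* reads outnumbered *Per3* reads 9.09-fold, 4.72-fold and 5.80-fold in the WT mice of batch A. Everywhere else *Per3* had more reads, by 4.57-fold and 5.15-fold in WT mice of batch B, 1.77-fold (mouse 417) to 17.6-fold (mouse 441) in batch A Lep(ob/ob) mice, 17.8-fold to 42.2-fold in those of batch B and 54.3-fold to 98.6-fold in CCKR-I. In batch B the 3 groups were separate and in the order WT, Lep(ob/ob), CCKR-I. Batch A Lep(ob/ob) mice were not uniform: mice 417 and 447 had ratios on the WT side of the batch B WT mice while 441 and 472 did not. *Cry1* against *Nr1d1* singled out other mice: *Nr1d1* had 3.20-fold to 11.6-fold more reads in 13 mice, 2-fold more in CCKR-I mouse 74, and fewer than *Cry1* in CCKR-I mouse 76 (*Cry1* 1.15-fold more) and in WT mouse 5489 (*Cry1* 6.14-fold more).

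**Figure D3:**
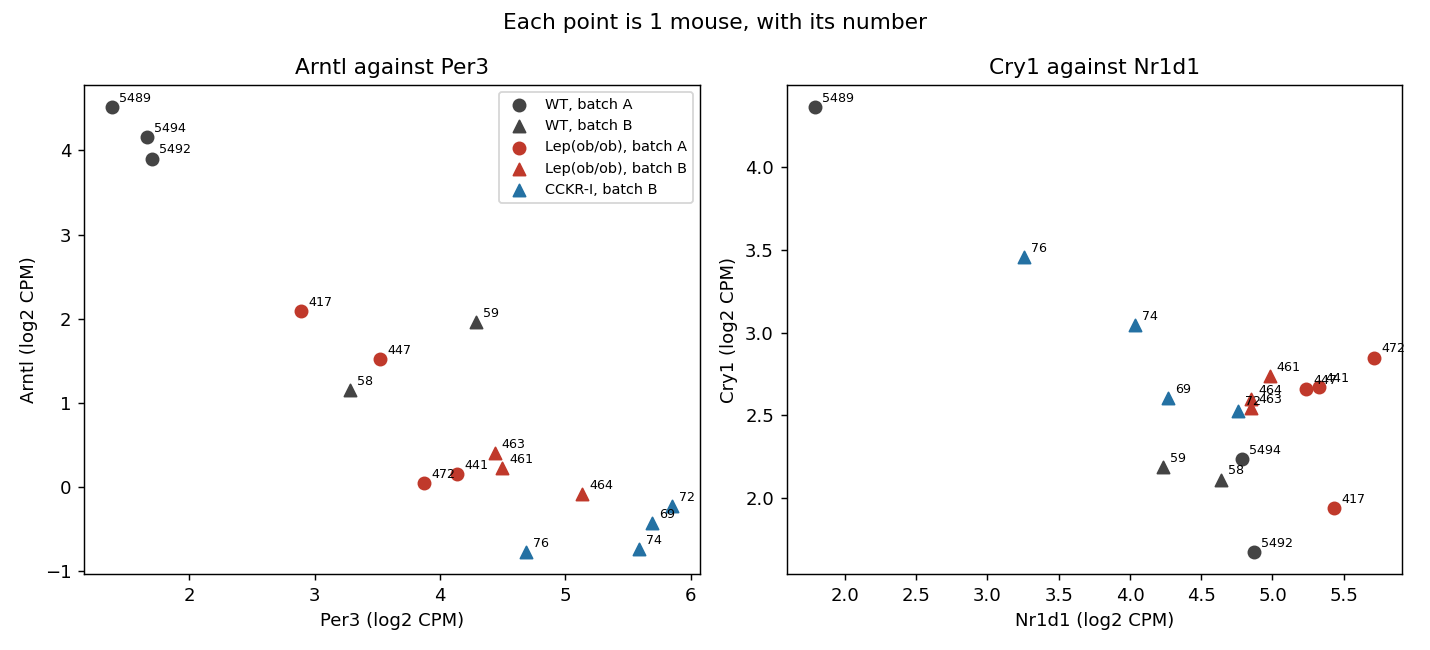
*Arntl* against *Per3* (left) and *Cry1* against *Nr1d1* (right), both axes in log2 CPM; each point is 1 mouse with its number, circles are batch A and triangles batch B, and colour gives the group. On the left, WT mice of batch A (*Arntl* 14.8 to 22.8 CPM) sit at 1 end. CCKR-I mice, all of batch B (*Arntl* 0.472 to 0.739 CPM), sit at the other, so group and batch both differ. WT mouse 5489 stands alone on the right.

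Beyond the group means, the spread among the mice of a group was also described. The genes were chosen by a pattern that includes differences between mice, so nothing is read from a comparison with all genes. The SD of log2 CPM within group and batch had a median of 0.574 over the 10 genes and of 0.313 over all genes tested, and without mouse 5489 of 0.397 and 0.314. It was 0.83 for *Nr1d1* and 0.68 for *Cry1* (0.37 and 0.35 without mouse 5489), but 0.14 for *Cry2* and 0.19 for *Clock*. After each gene was centred within group and batch, the 45 pairs of clock genes gave 6 Pearson correlations over 0.5 and 5 under -0.5 across the 16 mice. These are descriptions: the points share libraries, and several rest on mouse 5489. The lowest was that of *Cry1* with *Nr1d1* (r = -0.907, rho = -0.688), which became -0.571 without mouse 5489 and -0.69 without the 2 mice farthest from the median of *Cry1*. *Nr1d2* went with *Per1* (r = 0.764, and 0.321 without the 2 mice farthest from the median of *Per1*) and with *Cry2* (r = 0.696, and 0.635 likewise for *Cry2*). *Per2* and *Per3* had r = 0.467, and 0.891 without the 2 mice farthest in *Per2*. *Arntl* and its repressor gene *Nr1d1* showed r = -0.183 (rho = -0.35), with -0.28 in batch A and 0.30 in batch B, and *Arntl* with *Npas2* r = 0.586. *Arntl* with *Per3* gave r = -0.348, and -0.0196 without the 2 mice farthest from the median of *Arntl*. *Arntl* with *Per2* gave r = -0.105, and 0.118 without the same 2 mice. The opposite course of these genes thus lay mainly between groups and batches.

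**Figure D4:**
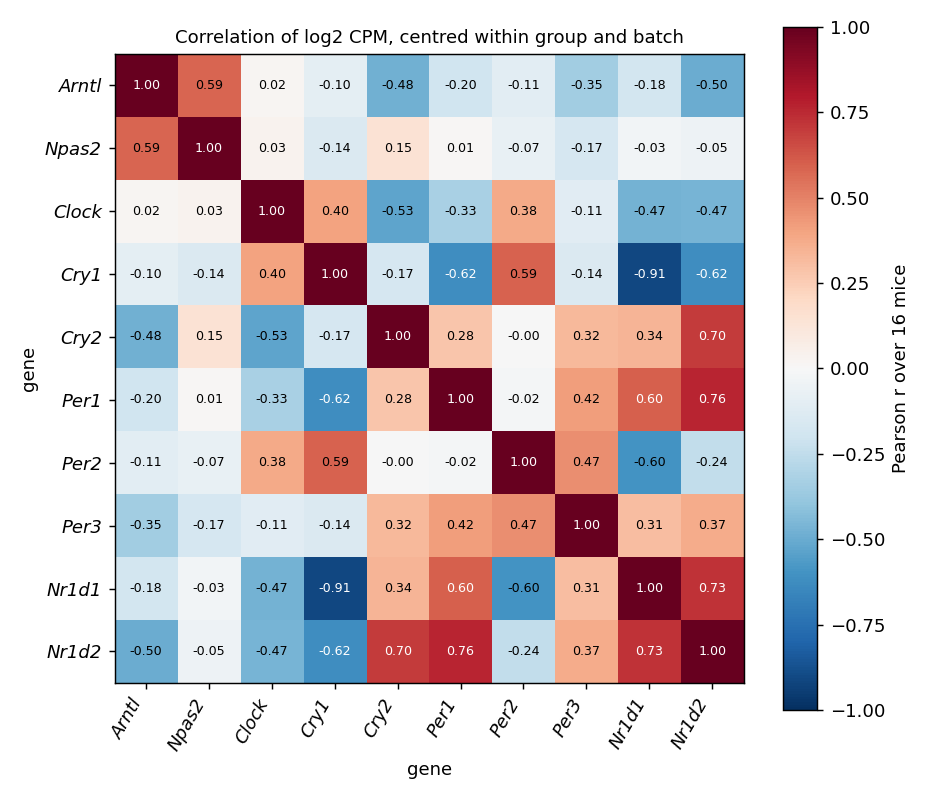
Pearson r between each pair of the 10 core clock genes over 16 mice, from log2 CPM centred within group and batch; colour and number give r, from -1 (blue) to 1 (red), with genes on both axes. *Cry1* and *Nr1d1* give the lowest value (-0.907), and *Per1* and *Nr1d2* the highest (0.764).

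Of 10856 genes outside the 10 with a mean log2 CPM of at least 1, those most like *Arntl* over the 16 mice by the same centred r were *Klf7* (0.780), *Jarid2* (0.774), *Aim1* (0.772), *Rhobtb1* (0.765) and *2310022A10Rik* (0.759). Those most opposed were *Hirip3* (-0.851), *Zfp955b* (-0.818), *l7Rn6* (-0.791), *Zfp110* (-0.785) and *Hs6st1* (-0.783). In the edgeR fit of all mice none of these 10 genes passed the test between Lep(ob/ob) and WT, with adjusted p from 0.0935 (*l7Rn6*) to 0.935 (*Hirip3*). *Rhobtb1* (-0.47 there) passed in batch A alone (-0.83, edgeR adjusted p = 0.00537), without WT mouse 58 (-0.62, adjusted p = 0.0323) and without the 4 mice with the highest adipocyte marker sum (-0.62, adjusted p = 0.0192). *Dbp*, an output of BMAL1 and CLOCK, was the 12th lowest at r = -0.73, and the lowest of the further clock genes compared. Those ran up to 0.434 (*Nfil3*), with *Hlf* at -0.0973 and *Bhlhe41* at -0.0672. The 10 genes named first are the extremes of 10856, and no r was tested.

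A list of 24 further clock genes was tested in the same model, of which 23 passed the filter on low counts (*Rorb* did not). Between Lep(ob/ob) and WT 10 rose and 2 fell, against 5.93% and 3.14% of all genes, and the median log2 fold change was 0.22 over the list and -0.02 over all genes. The list was chosen with results of these data known. In batch A alone edgeR called 9 of the 23, where 8.68% of all genes were called. In batch B alone it called 0 of the 23, where 0.057% of all genes were called. There, 12 of the 23 had an unadjusted p under 0.05, and the share of all genes at that p is not given.

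Of the list's 4 regulators of D-boxes, 3 rose and 1 fell, against 5.93% and 3.14% of all genes. *Dbp* stood at 1.67 to 12.3 CPM in WT (median 5.48), 16.7 to 51.0 CPM in Lep(ob/ob) (median 36.8) and 27.7 to 54.0 CPM in CCKR-I (median 30.4), so that no WT mouse reached any obese mouse. It rose 6.52-fold in Lep(ob/ob) (log2 fold change 2.7 ± 0.38 SE, edgeR quasi-likelihood adjusted p = 0.000344), with 3.39 ± 0.50 in batch A alone and 1.89 ± 0.34 in batch B alone. *Hlf* rose by 1.69 ± 0.28 (adjusted p = 0.00124; 2.31 ± 0.38 in batch A and 1.06 ± 0.29 in batch B) and *Tef* by 1.005 ± 0.171 (adjusted p = 0.00142). *Nfil3*, the D-box repressor and itself a target of the REV-ERBs, fell by 2.02 on the log2 scale (SE 0.32, adjusted p = 0.000919), from 3.41 to 14.0 CPM in WT to 1.07 to 2.45 CPM in Lep(ob/ob). Its promoter window holds the RORE core on the opposite strand at offset -12 (chr13:52981036-52981061, minus strand: cgctcggaacTGACCTactaacacac).

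The list's 3 repressors that act on E-boxes rose, against 5.93% of all genes. All groupings of the list, those below included, were made with these results known, so nothing is read from their counts. *Ciart*, whose protein binds BMAL1, stood at 0.401 to 2.25 CPM in WT, 1.80 to 9.96 CPM in Lep(ob/ob) and 9.10 to 16.1 CPM in CCKR-I, and rose by 2.11 ± 0.33 (SE, log2; edgeR adjusted p = 0.000752) in Lep(ob/ob). *Bhlhe40* and *Bhlhe41*, which compete with CLOCK and BMAL1 for E-boxes, rose by 1.39 ± 0.21 (adjusted p = 0.000676) and 1.37 ± 0.18 (adjusted p = 0.000221), with no overlap between Lep(ob/ob) and WT mice. Of 6 rhythmic outputs 4 rose, against 5.93% of all genes: *Usp2*, a deubiquitinase, by 1.68 ± 0.27 (adjusted p = 0.000943), *Tspan4* by 0.75 ± 0.17 (adjusted p = 0.00952), *Tsc22d3*, also a glucocorticoid target, by 0.67 ± 0.20 (adjusted p = 0.0492) and *Wee1*, a kinase that delays mitosis, by 0.49 ± 0.13 (adjusted p = 0.0272). In batch A alone *Tsc22d3* was at 0.31 ± 0.20 and in batch B alone at 1.30 ± 0.24. *Nampt* and *Ccrn4l* did not pass, at -0.03 ± 0.20 and 0.04 ± 0.20. The call of *Tsc22d3* was lost on leaving out any 1 of 8 mice, with edgeR adjusted p from 0.0512 to 0.179. These were WT 5489, 5494, 58 and 59 and Lep(ob/ob) 472, 417, 447 and 461. That of *Wee1* was lost on leaving out any 1 of 5 mice, with edgeR adjusted p from 0.0573 to 0.0923. Those were WT 5489, 5492, 58 and 59 and Lep(ob/ob) 441.

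Among the kinases and ubiquitin ligases that set the stability of PER and CRY, *Fbxl21*, of a CRY ligase, fell, and the other 5 did not pass. Of all genes, 3.14% fell. *Fbxl21* fell by 1.19 (log2, SE 0.30, edgeR adjusted p = 0.0193), with -0.69 ± 0.33 in batch A alone and -1.84 ± 0.49 in batch B alone. The call was lost in either batch alone and without WT mouse 59 (edgeR adjusted p = 0.0857). It was also lost without the 4 mice with the highest adipocyte marker sum. The casein kinase genes *Csnk1d* and *Csnk1e* were at 0.22 ± 0.09 (adjusted p = 0.159) and 0.33 ± 0.12 (adjusted p = 0.094). *Rora*, an activator at RORE sequences, *Arntl2*, a paralog of *Arntl*, and *Timeless* did not pass by edgeR either, at 0.13 ± 0.13 (adjusted p = 0.596), -0.34 ± 0.31 (adjusted p = 0.554) and 0.11 ± 0.26 (adjusted p = 0.832).

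**Figure D5:**
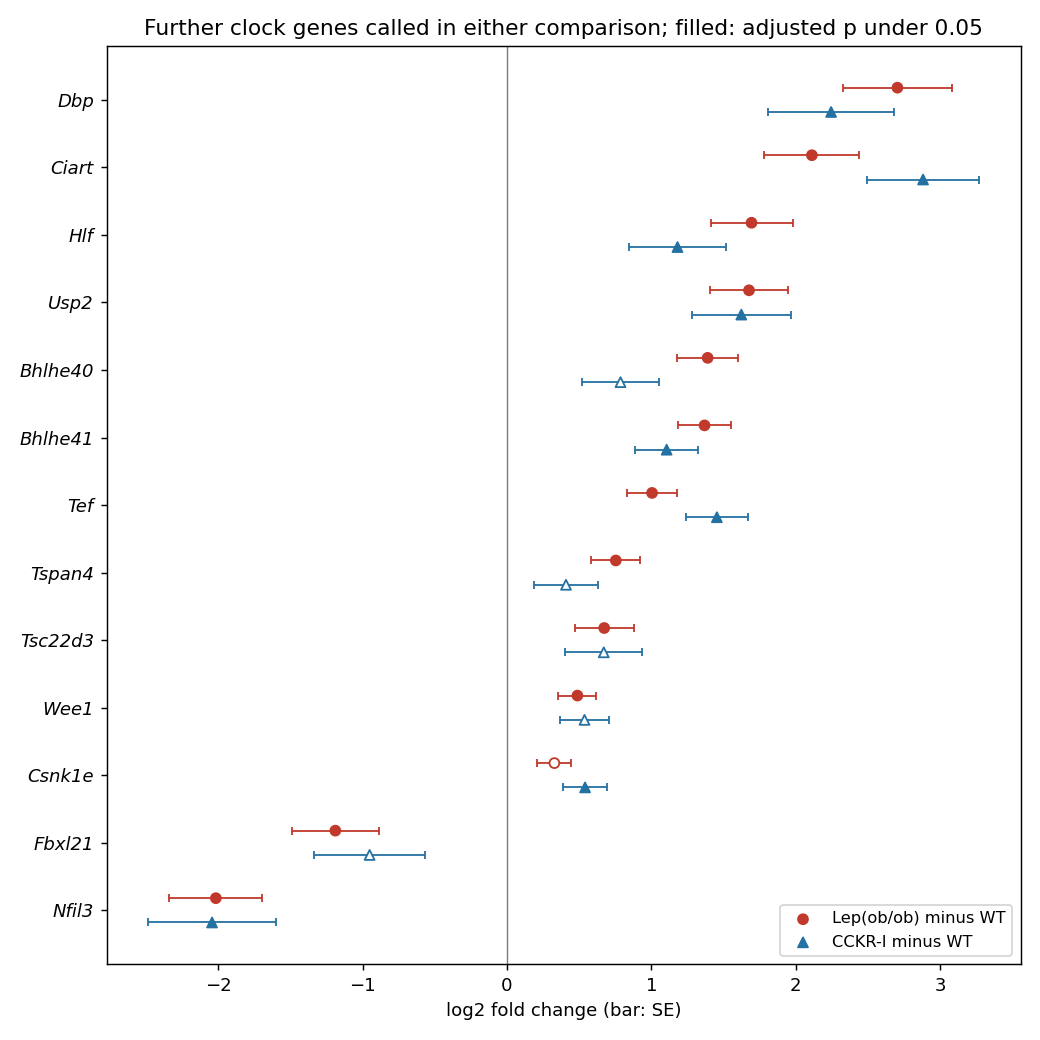
Log2 fold change (horizontal axis, bar SE) of the further clock genes with an edgeR adjusted p under 0.05 in either comparison, for Lep(ob/ob) minus WT (circles) and CCKR-I minus WT (triangles); filled symbols are past that threshold. *Dbp* (2.7) is at the top and *Nfil3* (-2.02) at the bottom for Lep(ob/ob), and the comparisons share the WT mice.

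CCKR-I against WT gave 7 further clock genes that rose and 1 that fell, against 4.22% and 1.35% of all genes. *Ciart* rose by 2.88 ± 0.39 (SE, log2; edgeR adjusted p = 0.000324), *Dbp* by 2.24 ± 0.44 (adjusted p = 0.0047), *Usp2* by 1.62 ± 0.34 (adjusted p = 0.00797), *Tef* by 1.45 ± 0.21 (adjusted p = 0.00067), *Hlf* by 1.18 ± 0.33 (adjusted p = 0.0468), *Bhlhe41* by 1.11 ± 0.22 (adjusted p = 0.0054) and *Csnk1e* by 0.54 ± 0.15 (adjusted p = 0.0437), while *Nfil3* fell by 2.04 (SE 0.44, adjusted p = 0.00952). The call of *Hlf* was lost on leaving out any 1 of 6 mice, with edgeR adjusted p from 0.0611 to 0.0994. These were WT 5489, 5494 and 58 and CCKR-I 69, 72 and 74. Other scalings, at least 10 counts in every mouse and the groups compared alone lost it too. That of *Csnk1e* was lost on leaving out any 1 of 8 mice, with edgeR adjusted p from 0.0622 to 0.143. Those were all 5 WT mice and CCKR-I 69, 72 and 74. Fitting with no filter on low counts or the groups compared alone also lost the *Csnk1e* call. Between CCKR-I and Lep(ob/ob), edgeR called 0 of the 23, against 0.0586% of all genes. At an unadjusted p under 0.05 by edgeR there were 5 (*Tef*, *Ciart* and *Bhlhe40* among them). DESeq2 called 0 of 21 that received an adjusted p, against 0.945% of all genes, with 6 at an unadjusted p under 0.05.

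Glucocorticoid targets were measured beside the clock, since glucocorticoids peak once a day and act on *Per1*. Of 6 genes, 4 rose in Lep(ob/ob), against 5.93% of all genes: *Fkbp5*, a co-chaperone of the receptor, by 1.80 ± 0.19 (SE, log2; edgeR adjusted p = 4.7e-05), *Zbtb16* by 2.43 ± 0.35 (adjusted p = 0.000449), *Klf9* by 0.54 ± 0.15 (adjusted p = 0.0313) and *Cebpd* by 0.65 ± 0.20 (adjusted p = 0.0493). *Fkbp5* ran from 7.71 to 13.6 CPM in WT, 19.8 to 51.9 CPM in Lep(ob/ob) and 33.5 to 58.2 CPM in CCKR-I, and *Zbtb16* from 1.21 to 5.35, 9.69 to 33.7 and 27.4 to 55.6 CPM, with no overlap between WT and obese mice. *Sgk1* and *Dusp1* were at 0.16 ± 0.29 (adjusted p = 0.791) and 0.46 ± 0.29 (adjusted p = 0.358). The calls of *Klf9* and *Cebpd* were lost on leaving out any 1 of 6 mice (WT 5489, 58 and 59; Lep(ob/ob) 472, 447 and 461; adjusted p from 0.0518 to 0.114) or any 1 of 8 mice (WT 5489, 5494, 58 and 59; Lep(ob/ob) 472, 447, 461 and 463; adjusted p from 0.0652 to 0.163), respectively. Both calls were also lost without the batch covariate and in either batch alone. *Klf9* and *Cebpd* were at 0.37 ± 0.18 and 0.48 ± 0.23 in batch A alone and at 0.86 ± 0.20 and 0.98 ± 0.32 in batch B alone. Against WT, CCKR-I mice showed a rise of *Fkbp5* (1.99 ± 0.23, edgeR adjusted p = 0.000116) and *Zbtb16* (3.44 ± 0.45, adjusted p = 0.000264). Against Lep(ob/ob) edgeR and DESeq2 called 0 of the 6 in CCKR-I, where they called 0.0586% and 0.945% of all genes. By either tool, 3 of the 6 had an unadjusted p under 0.05. Immediate early genes react to handling and stimulation within minutes (7 listed, 6 tested). Between Lep(ob/ob) and WT they gave 0 calls by edgeR and by DESeq2, with 0 at an unadjusted p under 0.05 by either. Of all genes, edgeR called 9.07% there and DESeq2 12.4%. For CCKR-I they also gave 0 calls, with 1 gene at an unadjusted p under 0.05 against Lep(ob/ob) and 2 against WT by either tool. Of all genes, edgeR called 0.0586% against Lep(ob/ob) and 5.57% against WT, and DESeq2 0.945% and 7.79%.

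Markers of other cell types were summed in each mouse. Islet markers (10 genes, all detected in every mouse) summed to 1316 to 1936 CPM in WT, 2646 to 13406 CPM in Lep(ob/ob) and 1588 to 15189 CPM in CCKR-I, and edgeR called 7 of 10 higher in Lep(ob/ob), against 5.93% of all genes. Adipocyte markers (10 genes, all detected) summed to 211 to 552 CPM in WT, 235 to 4154 CPM in Lep(ob/ob) and 474 to 2747 CPM in CCKR-I, highest in Lep(ob/ob) mice 463, 461 and 417 and CCKR-I mouse 69. Without these 4 mice, 10 further clock genes and 8 core clock genes were called between Lep(ob/ob) and WT, against 12 and 7 with all mice, while the share of all genes called was 12.3% without them and 9.07% with them. Macrophage markers (10 genes) ran from 163 to 253, 96.1 to 949 and 125 to 357 CPM in WT, Lep(ob/ob) and CCKR-I, and stromal markers (8 genes) from 434 to 692, 361 to 1443 and 292 to 624 CPM. The adipocyte, macrophage and stromal sums overlapped between all 3 groups over both batches, but in batch B the adipocyte sum of every obese mouse (687 to 4154 CPM in Lep(ob/ob), 474 to 2747 CPM in CCKR-I) was above that of both WT mice (328 and 370.0 CPM). Duct (8 genes), endothelial (8 genes) and lymphocyte markers (10 genes) ran over all mice from 157 to 436, 101 to 190 and 1.72 to 47.9 CPM. The part of the islet, adipose and other cells in the clock results was not tested.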

How the data were processed

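Per the labels, polyA RNA of snap-frozen, pulverized pancreas was made into stranded libraries and sequenced with paired reads. The submitters' processing notes name Trim Galore 0.6.7, cutadapt 3.5, STAR 2.7.9, DESeq2 and mm10; the read counter, its strand setting and the annotation are not given in the sources used here. The deposited count table holds the authors' raw counts per gene and mouse. A second deposited table holds a signal, those counts divided by the authors' size factor for each mouse, and served only as an alternative.

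Raw counts were fitted in R 4.3.3 with edgeR 4.0.16 (TMM scaling, filterByExpr, quasi-likelihood test) on group plus batch over all 16 mice, and p-values were adjusted by Benjamini-Hochberg over 13660 genes. Batch is estimated from WT and Lep(ob/ob), since every CCKR-I mouse is in batch B. SE is the log2 fold change over the root of F. CPM uses the scaled library sizes, and log2 CPM a prior count of 2. Each library is 1 mouse, and intervals cover counting error only. No pair of libraries agreed within sampling noise. Genes were named as follows: the 10 clock genes, the genes of the further clock, glucocorticoid and immediate early lists with an adjusted p under 0.05 in a comparison of groups, and the 5 genes with the highest and the 5 with the lowest r with *Arntl*; others named from the lists were chosen after their values were seen. Some listed genes are counted but not reported by name here. Counts at an unadjusted p are given without the share of all genes at that p, so nothing is read from them. The members and lists were chosen with earlier results of these data known. Alternatives were DESeq2 1.42.0, other scalings, filters and covariates, each batch or drug alone, and leaving out each mouse. The scripts were tested on simulated data.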

Additional observations from a re-analysis of the deposited data

Results flagged for a closer look

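Of 111 sets of values (37 named genes in 3 groups), 7 had an extreme mouse whose gap to its neighbour took more of the group's range than Dixon's 95% limit allows, where chance gives about 1 in 20, or 6. Of these, 3 concerned the core clock genes. WT mouse 5489 was the highest WT mouse in *Cry1* (log2 CPM 4.36 against 1.67 to 2.23; gap 0.791 of the range) and the lowest in *Nr1d1* (1.79 against 4.23 to 4.87; gap 0.793). Lep(ob/ob) mouse 417 was the lowest of its group in *Cry1* (1.94 against 2.54 to 2.85; gap 0.666).

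Among the other genes, the gap was 0.864 for *Klf9* in CCKR-I mouse 74 (highest), 0.883 for *Cebpd* in CCKR-I mouse 69 (highest), 0.721 for *Jarid2* in WT mouse 59 (highest) and 0.842 for *Jarid2* in CCKR-I mouse 76 (lowest).

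In 4 genes the mice of one drug all lay on one side of the mean of the batch B Lep(ob/ob) mice and those of the other drug on the other side; the doses differ, and the difference was not tested. The mean differences in log2 CPM were -0.06 with proglumide and 0.62 with lorglumide for *Cry1* (-0.68 between them), 0.05 and -0.20 for *Bhlhe41* (0.25), -0.21 and 0.17 for *l7Rn6* (-0.38), and -0.13 and 0.15 for *Zfp110* (-0.27). For *Rhobtb1*, Lep(ob/ob) minus WT was -0.91 in batch A and 0.21 in batch B (-1.12 between them), also not tested.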

How the results depend on the processing

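No paired analysis was possible because the groups have no mouse number in common. Calls of further clock genes fell to 0 in batch B alone for Lep(ob/ob) against WT (12 at an unadjusted p under 0.05) and for CCKR-I against WT (13 so), where 1 core clock gene was called in each against 0.057% and 0.0926% of all genes. For CCKR-I against WT, 5 further clock genes were called from the groups compared alone (2.18% of all genes), and 5 with 3 core clock genes from proglumide mice alone (1.65%). With at least 10 counts in every mouse, 3 of the 8 core clock genes fitted were called between batches, against 40.0% of all genes. The causes were not tested.

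The correlation of *Arntl* with *Nr1d1* (r = -0.183) was -0.467 centred within batch only, -0.35 as Spearman's rho and 0.30 in batch B, and -0.25 to -0.00604 on leaving out 1 mouse. That of *Cry1* with *Nr1d1* (-0.907) was -0.753 centred within batch only, -0.745 not centred, -0.688 as rho and -0.69 without the 2 farthest mice, and -0.951 to -0.571 on leaving out 1 mouse, the last without WT mouse 5489.

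Leaving out 1 mouse gave 5 to 8 core and 9 to 12 further clock genes called for Lep(ob/ob) against WT, 5 to 7 and 6 to 9 for CCKR-I against WT, 0 and 0 for CCKR-I against Lep(ob/ob), and 4 to 6 and 8 to 9 between batches; the shares of all genes called ran from 6.14% to 10.5%, 3.70% to 6.15%, 0% to 0.0657% and 27.8% to 36.6%. Among single genes, 2094 of 2343 alternative values kept direction and side of the threshold, 115 lost the threshold, 30 gained it, and 104 changed sign without passing it in either fit. Of the 104, 13 concerned core clock genes, 6 of them *Nr1d1* in CCKR-I against WT. The fewest reads, 0 to 1 per CCKR-I mouse for *Npas2* and 7 to 14 for *Arntl*, limit those genes. Leaving out the 4 mice with most adipocyte marker counts was chosen after seeing the data, as was the pair *Cry1* and *Nr1d1*.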
